A study of Mus musculus with 6 samples.

Results

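The genes described here are the cytosolic heat shock chaperones of the mouse, their co-chaperones and the transcription factor that switches them on, measured in adult hippocampal precursor cells given human LDL. The set was chosen by gene symbol and comprises 10 genes, Hsf1, Hspa1a, Hspa1b, Hspa8, Hsph1, Hsp90aa1, Hspb1, Hspb8, Dnajb1 and Bag3. Symbols were assigned through the RefSeq accession of each probe, and 9 of the 10 genes had at least 1 probe, with 12 probes in all. Hspa1b had none, so it carries no value here. All 9 met the background filter and stand among 24225 features tested, 1 for each gene or unnamed transcript. Hspa1a met it through the LDL arrays, since its signal exceeded background on 3 LDL arrays but on 2 of the 3 saline arrays.

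The cells were primary precursor cells of the dentate gyrus, isolated from C57BL6/JRj males aged 8 weeks and grown as an attached layer with EGF and bFGF at 20 ng/ml each. The LDL group (3 arrays) received human LDL, the lipoprotein particle that carries most cholesterol in human blood, at 100 ug/ml by the treatment protocol, and the saline group (3 arrays) received saline, both for 48 h. The sample descriptions write the volume unit of the dose differently, so the unit is uncertain. The replicates were independent experiments on different passages of cultured cells, and the labels do not say how many mice gave the cells, so p-values measure the spread between these cultures.

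Heat shock proteins hold unfolded proteins in solution and help them refold or pass them on for degradation. HSF1 is held inactive in unstressed cells by chaperones. When misfolded proteins occupy those chaperones, HSF1 forms trimers, binds heat shock elements in promoters and raises the transcription of inducible HSP70, HSP110, DNAJB1, BAG3 and the small heat shock proteins. Oxidative or electrophilic stress acts in large part through another factor, NRF2, which is released from its inhibitor KEAP1 and raises genes such as Hmox1, Gclm, Srxn1 and Txnrd1.

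The promoters of 4 of the genes are shown because 3 of them, Hspa1a, Hsph1 and Bag3, were the members whose LDL and saline arrays did not overlap, and because that of Hspa1b can be set beside that of its neighbour Hspa1a. Each is a window of 300 bases around a transcription start, most of it upstream, from RefSeq (GRCm38.p6), read 5′ to 3′ on the strand of the gene. Capitals mark pairs of facing heat shock units (GAANNTTC or TTCNNGAA, each the same on both strands) and the 3-unit element (TTCNNGAA followed by NNTTC, or GAANNTTC followed by NNGAA, which are reverse complements), which contains and so overlaps such pairs. The Hspa1a promoter is at chr17:34972107-34972406, minus strand, that of Hspa1b at chr17:34959189-34959488, minus strand, that of Hsph1 at chr5:149636266-149636565, minus strand, and that of Bag3 at chr7:128523333-128523632, plus strand.
Hspa1a: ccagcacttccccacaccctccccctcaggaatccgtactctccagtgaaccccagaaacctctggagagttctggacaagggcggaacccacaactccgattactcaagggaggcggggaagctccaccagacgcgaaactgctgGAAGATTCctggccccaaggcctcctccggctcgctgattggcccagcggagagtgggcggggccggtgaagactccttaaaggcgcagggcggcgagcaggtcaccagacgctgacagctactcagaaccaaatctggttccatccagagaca
Hspa1b: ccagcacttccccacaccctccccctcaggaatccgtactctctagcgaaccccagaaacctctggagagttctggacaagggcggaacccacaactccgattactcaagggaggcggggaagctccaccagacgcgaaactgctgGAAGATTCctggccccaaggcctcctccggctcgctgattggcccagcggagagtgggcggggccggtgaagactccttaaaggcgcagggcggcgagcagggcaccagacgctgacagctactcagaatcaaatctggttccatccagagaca
Hsph1: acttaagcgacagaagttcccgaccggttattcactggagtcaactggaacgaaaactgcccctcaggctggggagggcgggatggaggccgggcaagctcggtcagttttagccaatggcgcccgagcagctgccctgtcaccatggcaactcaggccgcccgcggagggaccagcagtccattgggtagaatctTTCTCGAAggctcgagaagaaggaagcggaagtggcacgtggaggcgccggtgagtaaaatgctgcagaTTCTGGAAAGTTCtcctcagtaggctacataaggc
Bag3: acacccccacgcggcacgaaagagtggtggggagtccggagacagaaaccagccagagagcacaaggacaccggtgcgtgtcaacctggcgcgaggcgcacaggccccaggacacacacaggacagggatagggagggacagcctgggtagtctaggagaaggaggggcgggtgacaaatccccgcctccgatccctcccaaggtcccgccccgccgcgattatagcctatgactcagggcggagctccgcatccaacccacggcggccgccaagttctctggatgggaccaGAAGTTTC

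The Hspa1a and Hspa1b windows were identical at 296 of 300 bases (98.7%), and both held the pair GAAGATTC, which began at position -104 from the start. Hsph1 had the 3-unit element TTCTGGAAAGTTC, beginning at position 16 from its start, and a further pair, TTCTCGAA, at position -54. Bag3 held a single pair, GAAGTTTC, beginning at position 43. Promoters of 7 of the 10 genes were in the table used, those of Bag3, Dnajb1, Hspa1a, Hspa1b, Hspb1, Hspb8 and Hsph1. A pair of units was found in 7 of their 9 promoters (77.8%), against 15.1% of all 32851 promoters. The 3-unit element was in 2 of the 9 (22.2%), against 0.603% of all promoters. By gene, a pair was found for 6 of 7, against 4587 of 27025, and the 3-unit element for 1, against 179 of 27025. The 2 Hsph1 windows overlap, and the Hspa1a and Hspa1b windows are near identical, so these counts hold the same sequence more than once. Hspb1 and Hspb8, whose LDL and saline arrays overlapped, also held pairs, and Dnajb1 held none. A match of letters is a description and does not show that HSF1 binds there in these cells.

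After 48 h of LDL none of the 9 measured genes passed an adjusted p of 0.05 in limma, in either direction. Across all features 3 were higher (0.0124%) and 26 lower (0.107%) after LDL, together 0.12%. At an unadjusted p under 0.05 there were 2 of the 9 genes, Bag3 and Hspa1a, both with higher values after LDL, against 2.96% of features higher and 4.5% lower, 7.46% in all. Both groups stood apart without overlap for 3 of 9 genes, Hspa1a, Bag3 and Hsph1, all with LDL above saline, beside 5.82% of all features with LDL above saline and 8.77% with LDL below, 14.6% in all. Hspa1a passed the background filter through the LDL arrays alone, so these counts lean on the filter. With the filter on all 6 arrays, which leaves Hspa1a out, 1 of 8 genes had an unadjusted p under 0.05 and 2 of 8 had groups without overlap, all with LDL higher, beside 3.06% and 5.83% of the features tested that way. An exact permutation test of 3 arrays against 3 cannot go below p = 0.1. The median log2 fold change of the 9 genes was 0.15, against -0.026 over all features. Without Hspa1a, which the filter on all 6 arrays removed, it was 0.093 over 8 genes. With all 9 genes kept, the median depended on single arrays. It was 0.0054 without LDL replicate 1, 0.058 without saline replicate 2, 0.035 without saline replicate 3 and 0.27 without LDL replicate 3. Levels are log2 signals of a probe above or below its array's 75th percentile, so a level can be set beside the same probe on another array but not beside another probe.

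**Figure D1:**
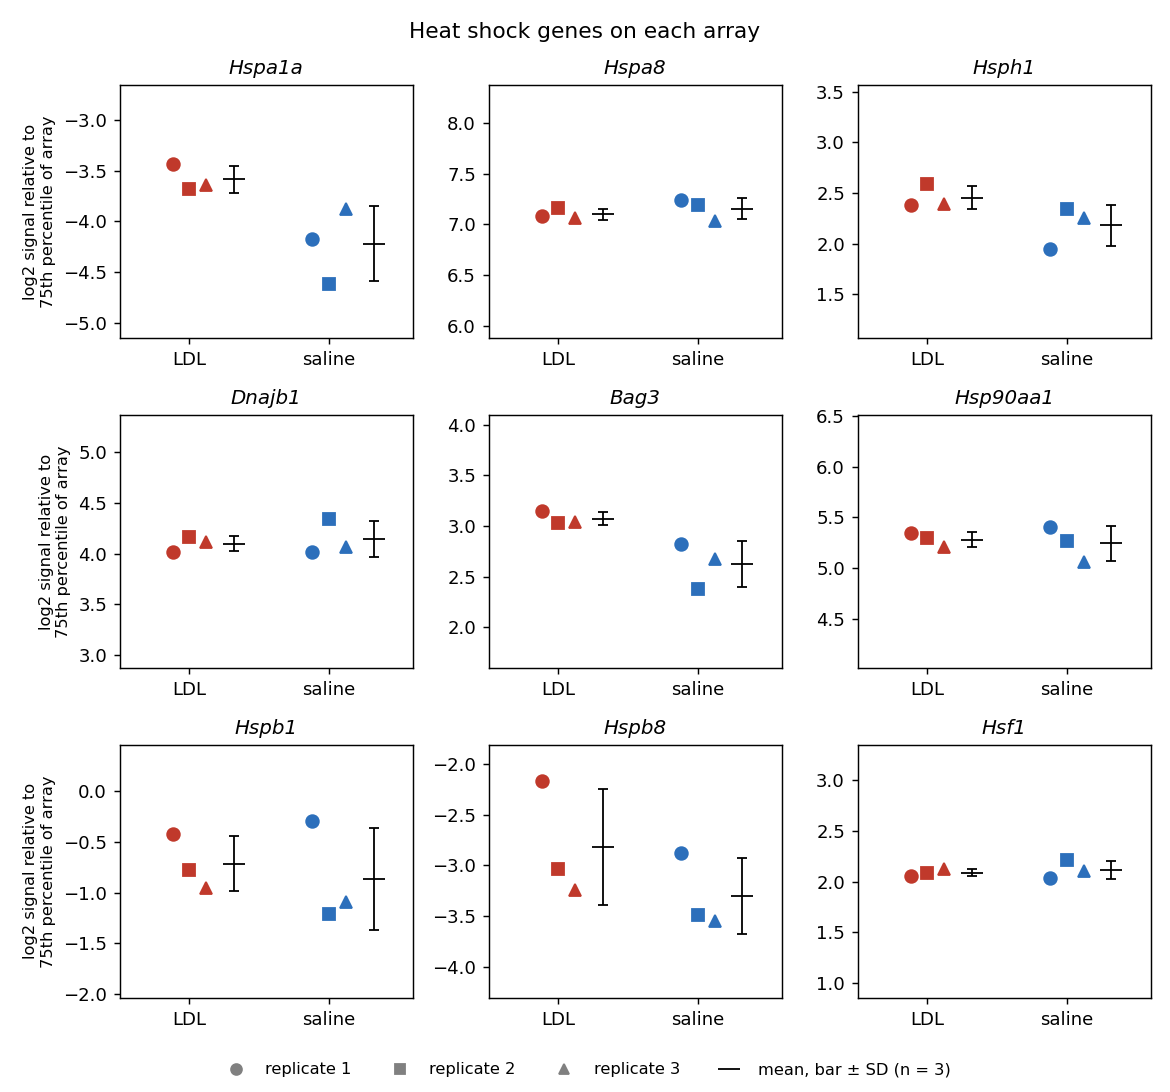
Signal on the log2 scale, after subtracting the 75th percentile of each array, of the 9 measured heat shock genes, with LDL arrays in red and saline arrays in blue, a marker shape for each replicate number, and the mean with a bar of ± SD (n = 3). Each panel spans the same number of log2 units, and for Hspa1a, Bag3 and Hsph1 all 3 LDL arrays lie above all 3 saline arrays.

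Hsf1 encodes the master regulator of the response, whose activity is set mainly by its release from chaperones and by phosphorylation rather than by its transcript. Its levels were 2.05, 2.09 and 2.12 on the LDL arrays and 2.03, 2.21 and 2.10 on the saline arrays. All 6 values lay close together, and the groups overlapped. LDL minus saline was -0.027 on the log2 scale (limma adjusted p = 0.971, 95% interval -0.25 to 0.20). This sign turned under the authors' processed values (0.0085), under median scaling (0.020) and without saline replicate 2 (0.021).

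Hspa1a encodes inducible HSP70, the chaperone that is scarce in unstressed cells and among the most strongly raised by heat. Its levels were -3.43, -3.68 and -3.64 with LDL and -4.17, -4.62 and -3.88 with saline. All 3 LDL arrays were above the highest saline array, saline replicate 3, by a small margin, and the lowest value was on saline replicate 2, the array with the smallest share of probes well above background (55.9%). Whether that share had a part in the value was not tested. The means were -3.58 ± 0.13 with LDL and -4.22 ± 0.37 with saline (SD, n = 3 each). Their difference of 0.64 (95% interval 0.18 to 1.10, SE 0.19), or 1.56-fold, did not pass (limma adjusted p = 0.518). With normexp background correction and quantile normalization it was 0.34 (adjusted p = 0.358), in a range of adjusted p from 0.29 to 1.00 over the settings. The processed signals behind these levels were dim, 88.8, 65.7 and 77.3 on the LDL arrays and 42.3, 29.8 and 64.4 on the saline arrays. Hspa1b, the neighbouring gene, encodes a nearly identical protein, and the letters of the probe are not used here, so how much of this signal comes from Hspa1b cannot be told apart.

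Hspa8 encodes HSC70, the constitutive relative of HSP70 that carries out everyday folding and clathrin uncoating. Its brightest probe had 7.08, 7.16 and 7.06 with LDL and 7.24, 7.19 and 7.04 with saline. The groups overlapped, and LDL minus saline was -0.055 (limma adjusted p = 0.941, 95% interval -0.29 to 0.18). In a fit with 1 feature per probe the other 2 probes gave 0.19 (interval -0.11 to 0.48) and 0.25 (interval -0.32 to 0.83), so the mean over probes had the opposite sign, 0.13. On the probe with the widest interval the 3 LDL arrays had 4.81, 4.80 and 4.87, while the saline arrays had 4.02, 5.02 and 4.70, and saline replicate 1 stood well below the others.

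Hsph1 encodes HSP105, the HSP110-type partner that exchanges nucleotide on HSP70 and helps it dissolve aggregates. It had 2.39, 2.58 and 2.39 with LDL and 1.95, 2.34 and 2.25 with saline. The LDL arrays were all above the saline arrays, though LDL replicate 1 and saline replicate 2 were close. The means were 2.45 ± 0.11 with LDL and 2.18 ± 0.21 with saline (SD, n = 3 each). Their difference was 0.27 (limma adjusted p = 0.732, 95% interval -0.045 to 0.59), and 0.16 without saline replicate 1. A second probe, fitted with 1 feature per probe, gave the same size, 0.27 (interval -0.053 to 0.60), with 0.92, 1.03 and 0.91 with LDL and 0.45, 0.91 and 0.68 with saline. On that probe saline replicate 2 reached the lowest LDL array, so the groups overlapped.

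Dnajb1 encodes HSP40, the J-domain partner that loads clients onto HSP70, and it is an HSF1 target often used as a readout of heat shock. It had 4.02, 4.16 and 4.12 with LDL and 4.02, 4.34 and 4.06 with saline. The highest array was saline replicate 2, and the groups overlapped. LDL minus saline was -0.043 (limma adjusted p = 0.962, 95% interval -0.33 to 0.24). Its sign turned in 4 of 19 settings, median scaling, normexp, the authors' values and without saline replicate 2.

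Bag3 encodes the co-chaperone that links HSP70 to the small heat shock proteins and steers aggregated clients to autophagy. It had 3.15, 3.03 and 3.04 with LDL and 2.82, 2.38 and 2.68 with saline. All 3 LDL arrays were above the saline arrays, and the LDL values lay closer together than the saline values. The means were 3.07 ± 0.065 with LDL and 2.62 ± 0.23 with saline (SD, n = 3 each). Their difference of 0.45 (95% interval 0.13 to 0.77, SE 0.13), or 1.36-fold, had the smallest unadjusted p of the 9 genes (0.0127), with limma adjusted p = 0.518. Over the 19 settings it lay between 0.32 and 0.55 and never passed (adjusted p between 0.297 and 1.00).

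Hsp90aa1 encodes the inducible HSP90 isoform, which holds kinases and receptors, and HSF1 itself, in a near-mature state. It had 5.34, 5.29 and 5.21 with LDL and 5.40, 5.27 and 5.06 with saline. The saline values bracketed the LDL values. LDL minus saline was 0.037 (limma adjusted p = 0.968, 95% interval -0.24 to 0.32), and its sign turned in 4 of 19 settings, including the authors' values (-0.022).

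The small heat shock proteins bind unfolding clients without using ATP. Hspb1, which encodes the mouse HSP25 (HSP27 in human), had -0.42, -0.77 and -0.95 with LDL and -0.29, -1.21 and -1.09 with saline. The highest array was saline replicate 1 and the groups overlapped, with LDL minus saline at 0.15 (limma adjusted p = 0.938, 95% interval -0.48 to 0.78), which was -0.022 without saline replicate 2. Hspb8, which encodes HSP22, the partner of BAG3 in selective autophagy, had -2.17, -3.04 and -3.24 with LDL and -2.87, -3.49 and -3.55 with saline. LDL replicate 1 was the highest array, and the remaining LDL arrays were below saline replicate 1. The difference of 0.49 (limma adjusted p = 0.797, 95% interval -0.25 to 1.23) was 0.16 without LDL replicate 1. It was 0.31 with normexp background correction and quantile normalization. The processed signals of Hspb8 were dim, 213, 103 and 102 on the LDL arrays and 104, 65.1 and 80.6 on the saline arrays.

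**Figure D2:**
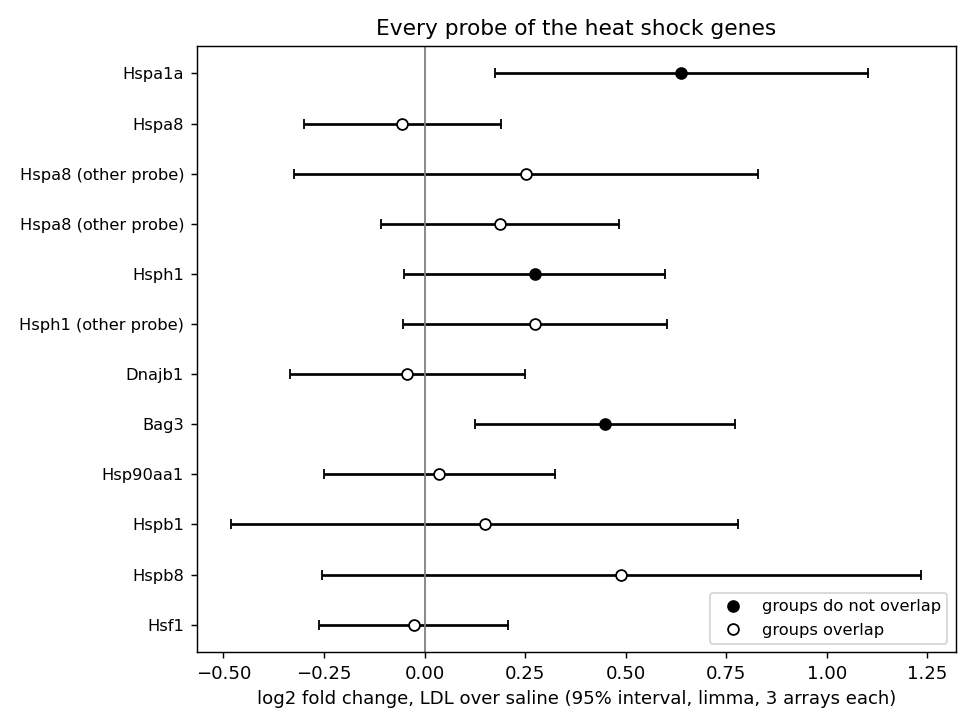
Log2 fold change, LDL over saline, of all 12 probes of the heat shock genes with 95% intervals from a limma fit of 1 feature per probe (3 arrays per group), filled where the groups do not overlap. Of the 12 probes 9 lie above 0, 3 are filled, and 0 passed an adjusted p of 0.05 (2 had an unadjusted p under 0.05).

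How closely these intervals bound a response differs among the genes. For 7 of the 9 genes the upper end of the 95% interval lay below 1 on the log2 scale, the exceptions being Hspa1a and Hspb8. For Hsf1, Hspa8 (by its brightest probe), Dnajb1 and Hsp90aa1 it lay between 0.18 and 0.32. In the fit with 1 feature per probe, the other Hspa8 probes had upper ends of 0.48 and 0.83. The saline arrays were the more variable, with an SD above that of LDL for 8 of 9 genes, Hspb8 being the exception. The median SD of the 9 genes was 0.073 with LDL and 0.21 with saline, and over all features it was 0.10 with LDL and 0.19 with saline. Of the 9 genes 5 had their highest LDL value on LDL replicate 1. The arrays lay on 1 slide in 2 rows. In row 1, with 2 arrays of each group, the difference LDL minus saline was 0.84 for Hspa1a, 0.49 for Bag3, 0.34 for Hsph1 and 0.58 for Hspb8, and in row 2, with 1 array of each, it was 0.24 for Hspa1a, 0.37 for Bag3, 0.14 for Hsph1 and 0.31 for Hspb8. Hsf1, Hspa8, Dnajb1 and Hsp90aa1 were at -0.052, -0.095, -0.091 and -0.016 in row 1. In row 2 their signs turned, to 0.024, 0.024, 0.053 and 0.14. The median over the 9 genes was 0.15 in row 1 and 0.14 in row 2, in both rows the value of Hspb1.

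**Figure D3:**
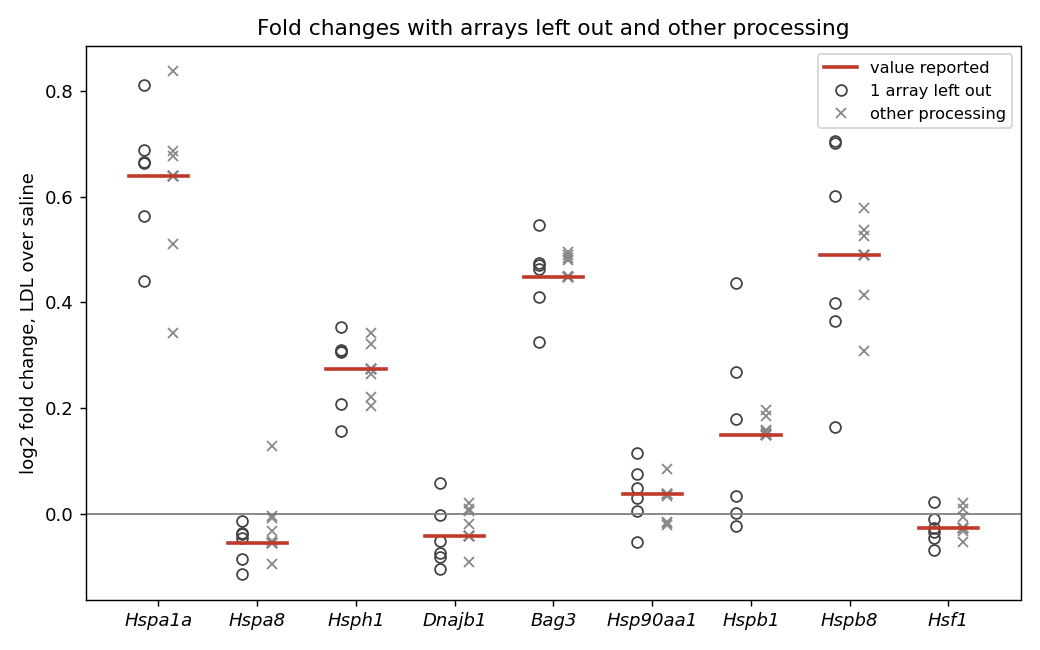
Log2 fold change, LDL over saline, of the 9 genes as reported (red line), with 1 array left out (circles) and with other processing (crosses). Bag3, Hsph1, Hspa1a and Hspb8 stay above 0 in each setting drawn, with the lowest values at 0.32, 0.16, 0.34 and 0.16, while the other genes cross 0.

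The wider chaperone network gave the same count of calls. Of 115 further genes tested in 10 lists of chaperones, co-chaperones, heat shock factors, the proteasome and ubiquitin, 0 passed in limma in either direction. At an unadjusted p under 0.05 there were 4 with higher values after LDL, Hsf4, Lonp1, Hspa9 and Sqstm1 (3.48%, beside 2.96% of all features), and 1 with a lower value, Cryab (0.87%, beside 4.5%). LDL arrays lay wholly above saline arrays for 9 of the 115 (7.83%, beside 5.82% of all features) and wholly below for 2 (1.74%, beside 8.77%). Hsf4, well above background on 3 LDL and 2 saline arrays, is in both counts of higher genes. It passed the background filter through the LDL arrays alone, so both counts lean on the filter. Counts with the filter on all 6 arrays are not given for these lists. The other HSP70 and HSP110 genes (7 of 8 measured) had a median of -0.034, and none had groups that did not overlap. Hspa4l, an HSP110-type gene, was at -0.17 (adjusted p = 0.794). The HSP90 list (16 of 16) had a median of 0.082, which was 0.0048 without saline replicate 1 and 0.19 without saline replicate 2. In it Hsp90ab1, the constitutive HSP90, was at -0.13 (adjusted p = 0.845), Stip1, the adaptor between HSP70 and HSP90, at 0.28 (adjusted p = 0.759), and Chordc1, an HSP90 co-chaperone, at 0.23 (adjusted p = 0.746). Fkbp5, a glucocorticoid-responsive co-chaperone at -0.17 (adjusted p = 0.763), was the only 1 of the 16 whose groups did not overlap. Ahsa2 had the lowest value of the list, -0.44 (adjusted p = 0.759), and was well above background on 2 LDL arrays and 3 saline arrays.

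Small heat shock genes outside the set (6 of 8 measured) had a median of -0.080. Of the 6, 5 were negative, beside 13618 of all 24225 features. Cryab, which encodes alpha B-crystallin and is an HSF1 target in many cells, had 3.37, 3.27 and 3.19 with LDL and 3.83, 3.80 and 3.43 with saline. All LDL arrays lay below the saline arrays, and LDL minus saline was -0.41 (adjusted p = 0.555, 95% interval -0.74 to -0.085). J-domain genes (8 of 10) had a median of 0.090, with Dnaja1 at -0.0047 (adjusted p = 0.995) and Dnajb2 at 0.33 (adjusted p = 0.719). BAG genes and exchange factors (7 of 7) had a median of 0.080 and values between -0.078 and 0.11. That median was 0.0075 without saline replicate 1 and 0.14 without saline replicate 2. Other heat shock factors and HSF1 partners (5 of 7) had a median of -0.067. Hsf2, a relative of HSF1, was at -0.12 (adjusted p = 0.862), and Hsf4, well above background on 3 LDL arrays and 2 saline arrays, at 0.41 (adjusted p = 0.491).

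The TRiC chaperonin and prefoldin, which fold actin and tubulin, had a median of 0.15 over 14 of 14 genes, with Tcp1 at 0.29 (adjusted p = 0.80) and Cct8 at 0.22 (adjusted p = 0.751). The median depended on single arrays, being 0.0045 without saline replicate 1 and 0.26 without saline replicate 2. Mitochondrial chaperones and proteases (10 of 10) had the highest median of the 10 lists, 0.18. Of these genes 9 were positive, beside 10607 of all 24225 features, and 4 had LDL arrays wholly above the saline arrays, beside 5.82%. Their median was 0.096 without saline replicate 1 and 0.29 without saline replicate 2. Lonp1, the protease of the mitochondrial matrix, had 4.84, 4.81 and 4.75 with LDL and 4.36, 4.49 and 4.26 with saline. The groups were well apart, and LDL minus saline was 0.43 (adjusted p = 0.388, 95% interval 0.19 to 0.68). Hspa9, the mitochondrial HSP70, was at 0.28 (adjusted p = 0.642), while the chaperonin pair Hspd1 and Hspe1, both heat-inducible, were at 0.044 (adjusted p = 0.955) and -0.048 (adjusted p = 0.959). The 26S proteasome had a median of 0.082 over 32 of 32 genes, within a range from -0.071 to 0.28. Of its genes 25 were positive, beside 10607 of all 24225 features. Psmd7, a lid subunit, was at 0.18 (adjusted p = 0.75). Ubiquitin and aggregate-handling genes (10 of 10) had a median of 0.011. Sqstm1, which encodes the autophagy receptor p62 and is also a target of NRF2, had 2.26, 1.87 and 1.78 with LDL and 1.07, 1.55 and 0.56 with saline. All LDL arrays were above the saline arrays, and the difference of 0.91 (adjusted p = 0.494, 95% interval 0.30 to 1.53) was the largest in its list.

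**Figure D4:**
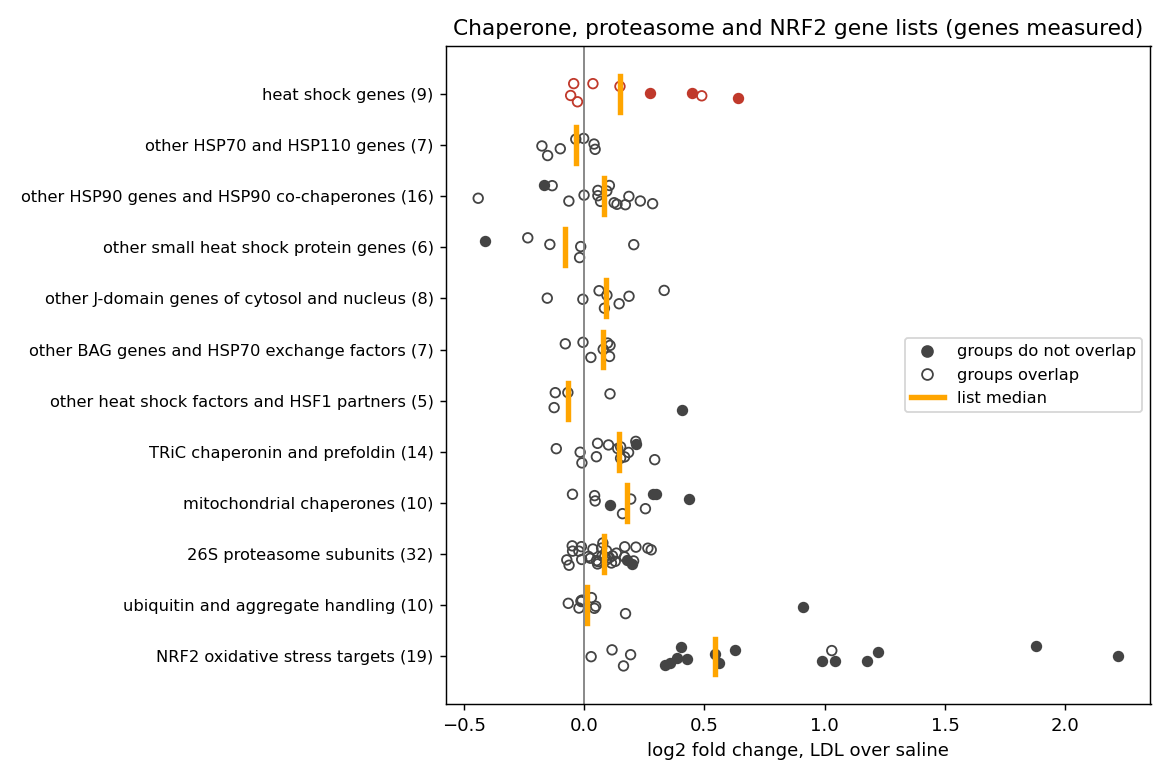
Log2 fold change, LDL over saline, of each measured gene in the heat shock set (red) and in 11 further lists, filled where the groups do not overlap, with the list median as an orange bar and the number of genes measured in brackets. The 11 chaperone, proteasome and ubiquitin groups have medians between -0.080 and 0.18, and the 19 NRF2 targets lie at or above 0.030 with a median of 0.54.

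Targets of NRF2 are given beside the heat shock genes, since the 2 sets answer mainly to different stresses, misfolded protein and oxidants. Of 19 NRF2 targets 0 passed in limma, beside 0.12% of all features. An unadjusted p under 0.05 was found for 13, all with higher values after LDL, beside 2.96% of all features. The log2 fold change was positive for 19, beside 10607 of the 24225 features. For 14 the LDL arrays lay wholly above the saline arrays, beside 3 of 9 for the heat shock genes and 5.82% of all features. The median was 0.54 for the NRF2 targets and 0.15 for the heat shock genes, and the difference between the lists was not tested. Hmox1, heme oxygenase, which both HSF1 and NRF2 can raise, had 4.98, 3.74 and 3.63 with LDL and 2.32, 2.36 and 2.04 with saline (log2 fold change 1.88, 95% interval 1.05 to 2.71, adjusted p = 0.242). Srxn1, sulfiredoxin, had 5.49, 3.87 and 3.78 with LDL and 3.33, 1.62 and 1.53 with saline (2.22, interval 0.74 to 3.70, adjusted p = 0.494). Txnrd1, thioredoxin reductase, had 4.87, 4.31 and 4.37 with LDL and 4.21, 3.85 and 3.81 with saline (0.56, interval 0.12 to 1.00, adjusted p = 0.554). For these 3 genes the LDL arrays were all above the saline arrays, and LDL replicate 1 was the highest array. The same array held the highest LDL value for 19 of the 19 NRF2 targets and for 5 of the 9 heat shock genes. The groups overlapped for Nqo1, which was at 0.12 (95% interval -0.27 to 0.50, limma adjusted p = 0.920). They also overlapped for Gsr at 0.19, Taldo1 at 0.16, Tkt at 0.030 and Osgin1 at 1.03. Set against each gene's mean over the 6 arrays, the median NRF2 target was at 0.58, 0.10 and 0.13 on the LDL arrays and at -0.088, -0.32 and -0.42 on the saline arrays, and the median heat shock gene at 0.082, 0.032 and -0.0031 on the LDL arrays and at -0.029, 0.0064 and -0.091 on the saline arrays. Without LDL replicate 1 the NRF2 median was 0.36, with 17 of 19 positive, and that of the heat shock genes 0.0054.

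The share of the 55681 probes well above background ran from 55.9% to 66.9% over the arrays. Of the 8 neural precursor markers 8 were well above background on all 6 arrays, and the young neuron marker Dcx was so on 0 arrays. Among markers of other cells, 4 of 5 neuronal, 5 of 5 astrocyte, 5 of 5 oligodendrocyte, 4 of 5 microglia and 2 of 5 vascular genes were above background on all 6, and Pdgfrb and Rgs5 on 0. A gene without a probe matched to its symbol also counts as 0 arrays. For Dcx, Pdgfrb and Rgs5 the count of 0 therefore does not separate a missing probe from a missing signal. Summed linear levels over a list, as multiples of each array's 75th percentile, ran from 354.7 to 384.1 with LDL and from 328.1 to 405 with saline for precursor markers, and from 52.2 to 55.1 with LDL and from 56.4 to 64.3 with saline for 3 proliferation markers. They ran from 2.83 to 3.12 with LDL and from 3.13 to 3.69 with saline for astrocyte markers, and from 19.3 to 23.8 with LDL and from 19.7 to 24.4 with saline for microglia markers. They ran from 13.7 to 16.5 with LDL and from 14.0 to 20.9 with saline for neuronal markers, from 9.26 to 12.2 with LDL and from 8.06 to 15.7 with saline for oligodendrocyte markers, and from 13.27 to 13.99 with LDL and from 14.03 to 14.67 with saline for vascular markers. The ranges of the 2 groups did not overlap for the proliferation, astrocyte and vascular lists. Bright probes weigh most in such sums. LDL minus saline was -0.072 (limma adjusted p = 0.905) for Kdr, the brighter of the 2 vascular genes measured. It was -0.22 (adjusted p = 0.824) for Aldh1l1 and -0.10 (adjusted p = 0.870) for Mki67, the brightest astrocyte and proliferation markers. Within the astrocyte list the markers did not move together. Gfap, the intermediate filament of astrocytes and of radial glia-like precursors, had -2.25, -2.01 and -2.05 on the LDL arrays and -3.26, -3.47 and -3.63 on the saline arrays. It was higher after LDL by 1.35 on the log2 scale (limma adjusted p = 0.0225, 95% interval 1.04 to 1.66) and is 1 of the 3 features called higher, although 0 features were called higher in several settings. The other 4 astrocyte markers were at -0.18 to -0.36, and none of them passed. Their part in the values of the heat shock genes was not tested. In cultures measured as bulk RNA, fewer cells of a type and less RNA per cell cannot be told apart.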

How the data were processed

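Gene expression was measured on 6 arrays, 3 of LDL-treated and 3 of saline-treated precursor cell cultures, each a 1-colour Agilent array labelled with cyanine-3 from 100 ng of total RNA per the labels. The deposited scanner files hold intensity values on a linear scale, which Agilent Feature Extraction background-subtracted and detrended per the file headers, with no normalization between arrays. Of software, limma 3.34.9, R 3.4.4 and version 10.7.3.1 of Agilent's extraction program are named in the submitters' processing notes. The authors also deposited log2 values of the same arrays (column medians between 6.67 and 6.69), aligned by a method not given in the sources used here and used as an alternative. Across probes they correlated with the scanner values at r between 0.987 and 0.993.

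Processed signals were put on a log2 scale and each array's 75th percentile over non-control spots was subtracted. Outlier-flagged spots were dropped unless a probe had no other spot on that array, and no probe of the heat shock genes was flagged or saturated. A probe was tested if at least 50% of its spots were well above background on all 3 arrays of a group. The files have no gene symbol column, so symbols came from unversioned accessions in a RefSeq gene table (GRCm38.p6, 28331 of 55681 probes matched). Each gene was represented by its brightest probe on average. The 24225 features were tested with limma 3.58.1 in R 4.3.3 (lmFit, eBayes, two-sided, no covariates), and p-values were adjusted by Benjamini-Hochberg across every feature. The code was tested on simulated data. The number of arrays limits the precision.

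The genes and lists were chosen with earlier results of these data known, so no test adjusted over a list is given. Named were the 10 genes with every probe, up to 4 genes per further list with the smallest p, and further listed genes, 1 of which is not reported here. Protein sequences were not used here. Promoter windows were aligned with Biopython 1.88, and figures drawn with matplotlib 3.10.9. Alternatives were other background corrections, scalings, filters and probe summaries, blocks for replicate number and slide row, slide row 1 alone, trended robust variances, each array left out and, chosen after seeing the data, flagged values left out.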

Additional observations from a re-analysis of the deposited data

How the results depend on the processing

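The count of 0 heat shock genes passing in limma, higher or lower, held in all 19 settings. From 1 to 3 of the genes had an unadjusted p under 0.05, and the count over all features moved too. It was 862 of 24225 features in slide row 1 alone, with 1 of the heat shock genes. Without saline replicate 2 it was 3742 of 24225, with 3 of the heat shock genes. Counts over all features moved. Higher features (3) became 8 under each of normexp, median scaling and the authors' values, 5 under quantile normalization alone, 0 without the filter, 5 with the filter on all 6 arrays, 0 with slide row as a block, 0 in slide row 1 alone, 16 with trended robust variances, 6 with flagged values left out and 0 to 6 with 1 array left out (0 without LDL replicate 1, 2 or 3 or saline replicate 2 or 3). Lower features (26) became 0 without the filter, 14 with slide row as a block, 0 in slide row 1 alone and 0 to 23 with 1 array left out (0 without LDL replicate 2, LDL replicate 3 or saline replicate 3, 3 without saline replicate 2 and 16 without LDL replicate 1). Median scaling gave 8 higher and 22 lower, and the authors' values 8 higher and 27 lower. In settings with 0 in a direction, 862 to 3742 features had an unadjusted p under 0.05. The median of the heat shock genes (0.15) was 0.20 with median scaling, 0.093 with the filter on all 6 arrays, where Hspa1a is not tested, and 0.0054 to 0.27 with 1 array left out. The number of heat shock genes with LDL arrays wholly above saline arrays ran from 2 to 5. The share of all features so placed ran from 4.10% without the filter to 15.7% without saline replicate 2. Without saline replicate 1 the count was 5 and the share 11.9%. With LDL lower the count was 0, except 1 without saline replicate 3 and 1 in slide row 1 alone. The share of features for that direction is not given by setting. Signs turned for genes near 0. Dnajb1 had 0.021 with normexp, 0.0045 with median scaling, 0.0095 with the authors' values and -0.11 to 0.058 with 1 array left out. Hsf1 had 0.020 with median scaling, 0.0085 with the authors' values and -0.068 to 0.021 with 1 array left out. Hsp90aa1 had -0.017 with normexp, -0.022 with the authors' values, -0.016 in slide row 1 and -0.054 to 0.12 with 1 array left out. Hspa8 had 0.13 with the mean over probes, and Hspb1 -0.022 to 0.44 with 1 array left out. What turned these signs was not tested.

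A replicate block gave other counts: 2 features were higher and 1 lower in limma, no heat shock gene passed, and 1 NRF2 target did (Srxn1, adjusted p = 0.043). At an unadjusted p under 0.05 there were 3 heat shock genes, beside 1975 of 24225 features. The fold changes were unchanged, since each number has both arrays. Deviations of same-numbered arrays correlated at 0.21, -0.043 and 0.18 across features, so pairing was not assumed.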

Other observations

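Pairs of heat shock units varied among the promoters of genes outside the set, against 15.1% of all promoters. They were found in 38.5% of 13 promoters of HSP90 genes and co-chaperones, 33.3% of 9 of mitochondrial chaperones, 28.6% of 7 of other small heat shock genes, 26.3% of 19 of J-domain genes, 18.8% of 16 of TRiC and prefoldin and 16.7% of 6 of other heat shock factors and partners. They were found in 12.5% of 8 promoters of ubiquitin and aggregate-handling genes, 7.14% of 28 of the proteasome, 0 of 8 of other HSP70 and HSP110 genes, 0 of 6 of BAG genes and exchange factors and 0 of 21 of NRF2 targets. These shares were not tested. Cryab and Hspb8, both small heat shock genes, had differences of opposite sign, -0.41 and 0.49, neither past the threshold. For Sqstm1 the SD was 0.25 with LDL and 0.49 with saline (n = 3 each).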
